A study of Mus musculus with 4 samples.

Results

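Transcript levels of 10 erythroid and megakaryocytic transcription factor genes were examined in CD117-selected bone marrow cells of mice with an inducible HIF-1α and of wild-type mice. The members, Gata1, Gata2, Klf1, Tal1, Nfe2, Gfi1b, Zfpm1, Ldb1, Lmo2 and Bcl11a, were chosen by name. All 10 were found by Entrez identifier among the 24415 genes of the deposited count table. The series holds 4 RNA sequencing libraries from total RNA, 2 from wild-type mice and 2 from mice in which, per the series' design text, a constitutively active HIF-1α protein was induced. HIF-1α is the oxygen-regulated subunit of the transcription factor HIF-1, and the series title links its activation to myelodysplastic syndrome (MDS). Both genotypes share the strain background given as C57BL/6, 129X1/SvJ, and cells were enriched on magnetic beads against CD117, the stem cell factor receptor KIT. The sources used here give neither the promoter that drives the induced protein nor the inducing agent, its timing, or the age of the mice. Whether the libraries of a genotype stem from different mice is also not stated, and the p-values therefore describe library-to-library spread that may be technical only.

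Red cells and platelets arise from a shared progenitor under a small set of DNA-binding proteins and the adaptors that join them. GATA2 acts in stem cells, early progenitors and mast cells, and is replaced on many sites by GATA1 as erythroid and megakaryocytic cells mature. GATA1 works with its cofactor FOG1 (gene Zfpm1) and in a complex with TAL1, LMO2 and LDB1. KLF1 activates globin and red cell membrane genes, GFI1B is a repressor needed for both lineages, NF-E2 (p45 subunit, gene Nfe2) is needed for platelet release, and BCL11A silences embryonic and fetal globin genes and is also needed in B cells.

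The libraries held 22221798 to 27539149 counts. The biological coefficient of variation within the pair was 28.2% for inducible HIF-1α and 13.8% for wild type. Levels are given as CPM, counts relative to the TMM-scaled library size, and a count of 0 allows up to 3 counts, at most 0.138 CPM (counting error only). Kit, the gene of the selected antigen, was at 268 and 242 CPM in wild type and at 347 and 390.4 CPM in inducible HIF-1α replicates 1 and 2. Hif1a was at 179 and 168 CPM in wild type and at 155 and 113 CPM in inducible HIF-1α (log2 fold change -0.38 ± 0.21 (SE), adjusted p = 0.426 by edgeR's quasi-likelihood test), and whether reads of the induced transcript are counted there is not stated. The summed level of 12 neutrophil, monocyte and macrophage markers was 27022 and 24275 CPM in wild type, 16607 CPM in inducible HIF-1α replicate 1 and 7647 CPM in replicate 2. That of 16 B cell markers was 627, 593, 30.3 and 10.3 CPM in the same order. In a bulk sample, fewer cells of a type and less RNA per cell cannot be told apart. The part of these lineages in the values below was not tested.

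The windows just before the starts of 4 members are shown as examples, chosen after their values were seen: Gata1 and Gata2 as the pair of GATA factor genes, and Klf1 and Gfi1b as windows with a single GATA match. RefSeq windows (GRCm38.p6) were matched for 8 of the 10 members, and each sequence is the 250 bases before a start, on the strand of the gene, 5′ to 3′. Capitals mark GATA matches (GATAA or GATAG preceded by A or T) and matches to a CACCC-type box of the KLF family (CCNCNCCC), both searched on either strand, with no base shared between the motifs in these windows.
Gata1, chrX:7967911-7968160, minus strand: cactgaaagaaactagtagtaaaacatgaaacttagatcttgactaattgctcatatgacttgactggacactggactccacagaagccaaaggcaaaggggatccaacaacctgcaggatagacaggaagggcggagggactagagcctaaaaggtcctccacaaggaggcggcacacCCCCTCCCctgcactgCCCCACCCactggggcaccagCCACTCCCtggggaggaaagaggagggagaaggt
Klf1, chr8:84901732-84901981, plus strand: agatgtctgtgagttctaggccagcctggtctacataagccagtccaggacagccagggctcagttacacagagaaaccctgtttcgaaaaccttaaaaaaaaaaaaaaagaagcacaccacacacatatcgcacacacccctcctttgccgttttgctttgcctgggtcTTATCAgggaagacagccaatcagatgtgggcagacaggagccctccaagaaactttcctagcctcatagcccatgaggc
Gfi1b, chr2:28621983-28622232, minus strand: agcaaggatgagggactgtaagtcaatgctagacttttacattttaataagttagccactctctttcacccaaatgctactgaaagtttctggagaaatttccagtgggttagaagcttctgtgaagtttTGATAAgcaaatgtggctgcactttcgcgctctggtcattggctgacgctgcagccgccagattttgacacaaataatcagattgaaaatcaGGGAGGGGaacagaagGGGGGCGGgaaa
Gata2, the downstream of its pair of starts, chr6:88198414-88198663, plus strand: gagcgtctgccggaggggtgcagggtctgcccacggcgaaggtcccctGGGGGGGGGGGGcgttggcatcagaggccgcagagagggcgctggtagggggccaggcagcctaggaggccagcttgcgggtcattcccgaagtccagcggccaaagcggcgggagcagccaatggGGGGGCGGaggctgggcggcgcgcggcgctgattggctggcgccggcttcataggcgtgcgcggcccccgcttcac

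The Klf1 and Gfi1b windows each held 1 GATA match, at positions -80 to -75 and -120 to -115 from the start. The Gata1 window held 3 CACCC-type matches between positions -71 and -27, and the Gata2 window held 6, of which 5 overlap in a run of G at -202 to -191. This Gata1 window stands before a start inside the span of the gene, whose upstream end is at 7976663. No window was matched at that end. Over the 12 windows of the 8 members, 4 windows held a GATA match and 10 a CACCC-type match, and among 32851 windows of all genes 26.5% and 45.9% did. An E box (CANNTG, the element of TAL1 heterodimers, either strand) stood in 5 of the 12 windows and in 66.2% of all windows. The core of the HIF element (ACGTG or GCGTG, either strand, 1 of them overlapping a CACCC-type match in Zfpm1) stood in 5 windows, of Gata2, Zfpm1, Ldb1 and Bcl11a, and in 38.6% of all windows. The NF-E2 core TGANTCA stood in none of the 12 and in 6.75% of all windows. For Tal1 window 1 and Ldb1 windows 1 and 3, numbered from upstream, bases just after the start were not found in an annotated transcript. Their matches are in the counts above. A match describes letters and is not a binding site.

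**Figure D1:**
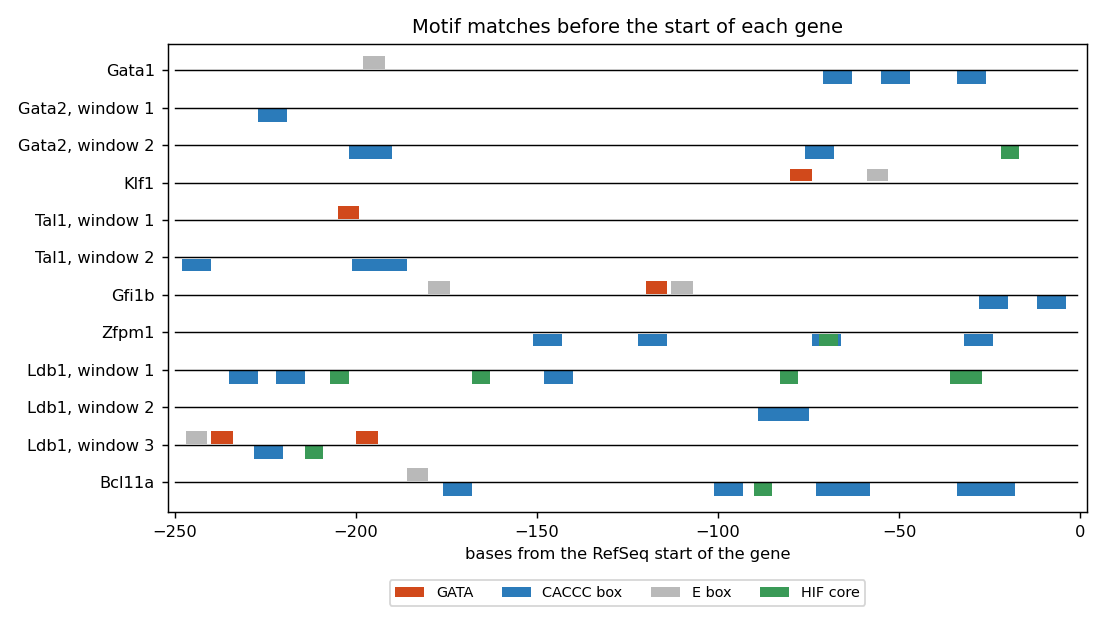
Motif matches in the 250 bases before each RefSeq start of the members; the x axis is the distance in bases from the start, each line is 1 window, and coloured blocks are matches (GATA orange, CACCC box blue, E box grey, HIF core green). GATA blocks appear in windows of Klf1, Tal1, Gfi1b and Ldb1, and CACCC-type blocks in 10 of the 12 windows.

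Against wild type, none of the 10 members passed the test across all 4 libraries. The test was edgeR's quasi-likelihood F test over the 14043 genes that passed a filter on low counts, with Benjamini-Hochberg adjusted p-values, and a gene is called where that p is under 0.05. All 10 members passed the filter. It called 157 of all tested genes (1.12%), 16 higher (0.114%) and 141 lower (1.0%). At an unadjusted p under 0.05, 6 members were higher, against 5.44% of all tested genes, with 16.9% in either direction. The other tools differed: limma-voom called none of the 10 (1.48% of all tested genes), DESeq2 called Tal1 and Bcl11a higher (1.22% of all tested genes higher, 5.69% lower, 6.91% in all), and edgeR with no filter called the same pair (0.672% higher, 3.55% lower, 4.22% in all). No member was called with the other 3 scalings (0.997%, 1.07% and 0.691% of all tested genes), a stricter filter that asks for 1 CPM or more in each library (0.667%), a replicate block (2.71%) or without the 10 genes of highest abundance (0.784%). Of the 10 members, 9 had a positive log2 fold change, with a median of 0.82 where that of all tested genes was 0.00. In 6 members, Gata1, Klf1, Tal1, Zfpm1, Lmo2 and Bcl11a, both inducible HIF-1α libraries lay above both wild-type libraries, as they did in 24.6% of all tested genes. With the other 3 scalings Gfi1b joined them, making 7.

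The inducible HIF-1α libraries stood apart from each other over this set. Replicate 2 exceeded replicate 1 by at least 1.5-fold in 7 of the 10 members, and it did so in 13.6% of all tested genes. Without replicate 1, 8 members were called higher and 1, Gata2, lower, beside 12.4% and 19.7% of all tested genes (32.1% in all). Without replicate 2, Tal1, Lmo2 and Bcl11a were called higher, beside 3.84% of all tested genes, and none lower (7.64% lower and 11.5% in all). In these fits the lone inducible HIF-1α library was assumed to vary as the wild-type pair does. With 1 or the other wild-type library left out no member was called, and 2 (0.0138%) and 0 genes were called in all. Over the 13 alternatives the lowest adjusted p of every called member was that without replicate 1, and the highest, without wild-type replicate 2, was 0.985 for 8 members, 0.993 for Gata2 and 0.999 for Nfe2.

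**Figure D2:**
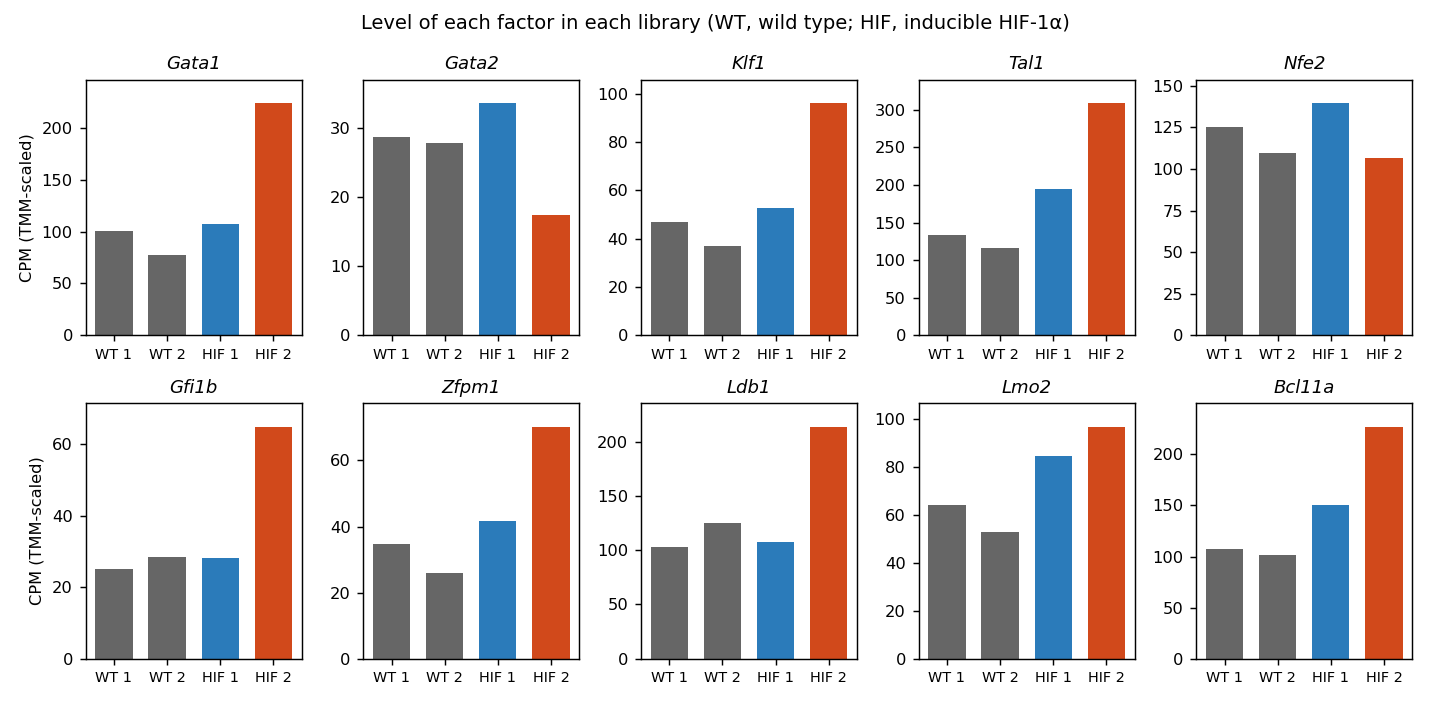
Level of each factor in each library, in TMM-scaled CPM on an axis from 0, with 1 bar per library (grey wild type, blue inducible HIF-1α replicate 1, orange replicate 2). In 8 of the 10 panels the orange bar is the tallest; Gata2 has its lowest bar there, at 17.4 CPM, and the Nfe2 bars lie between 106 and 139.7 CPM.

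The GATA factor genes differed in which inducible HIF-1α library was higher. Gata1, the gene of the main erythroid and megakaryocytic GATA factor (Entrez 14460; chromosome X, 7959260 to 7976663 in GRCm38, minus strand), was at 101 and 76.9 CPM in wild type and at 107 and 224 CPM in inducible HIF-1α replicates 1 and 2. Replicate 1 lay just above the higher wild-type library, and replicate 2 was at 2.52 times the wild-type mean. Over all 4 libraries the log2 fold change was 0.90 ± 0.35 (SE, adjusted p = 0.271 by edgeR's quasi-likelihood test). Without replicate 1 it was 1.33 ± 0.18 (adjusted p = 1.19e-12 by the same test) and without replicate 2 it was 0.30 ± 0.18 (adjusted p = 0.343). Of all tested genes, 4.32% differed between the inducible HIF-1α libraries by at least as much in this direction.

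Gata2, the progenitor GATA factor gene (chromosome 6, 88193891 to 88207032), was at 28.8 and 27.9 CPM in wild type, at 33.7 CPM in replicate 1 and at 17.4 CPM in replicate 2 of inducible HIF-1α. Replicate 1 was the highest of the 4 libraries and replicate 2 the lowest, so the groups overlapped. The log2 fold change was -0.15 ± 0.33 (edgeR adjusted p = 0.857), -0.70 ± 0.24 without replicate 1 (adjusted p = 0.0137), and 0.28 ± 0.22 without replicate 2 (adjusted p = 0.495). Mast cells, basophils and eosinophils also express GATA factors. The summed level of 11 mast cell and basophil markers was 334 and 367 CPM in wild-type replicates 1 and 2. In inducible HIF-1α replicates 1 and 2 it was 273 and 314 CPM. Of the mast cell protease genes in that list, Tpsb2 had no count in any library and Cma1 none in 3. Cpa3, a carboxypeptidase gene of the list, was at 38.3, 36.5, 36.0 and 26.3 CPM in the same order. The summed level in inducible HIF-1α replicate 2 rested on Il1rl1, at 66.1, 82.7, 85.03 and 187 CPM. The other 10 markers summed to 268, 285, 188 and 127 CPM, a split made after the values were seen. Of the 9 tested, 8 lay below the wild-type mean in replicate 2. The summed level of 9 eosinophil markers was 88.2, 79.3, 41.4 and 22.9 CPM. Their part in the Gata1 and Gata2 levels was not tested.

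A ratio of counts within a library does not depend on how libraries are scaled. Gata1 had 3.50 and 2.75 reads per Gata2 read in wild type, 3.17 in inducible HIF-1α replicate 1 and 12.9 in replicate 2. Only replicate 2 lay outside the wild-type pair, and the log2 ratio differed by 1.04 between genotypes (1.63 ± 0.25 in wild type, 2.67 ± 1.43 in inducible HIF-1α, SD, n = 2 each; exact permutation test, two-sided, p = 0.667). Gata1 reads per read of Spi1, the gene of the myeloid factor PU.1 that GATA1 opposes, were 3.06 and 2.07 in wild type and 4.92 and 19.8 in inducible HIF-1α. Here both inducible HIF-1α libraries lay above both wild-type libraries, with a difference in log2 ratio of 1.97 (exact permutation test, two-sided, p = 0.333, the smallest that 2 against 2 libraries allow). The difference was 0.97 without replicate 2 and 2.97 without replicate 1.

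Zfpm1, the gene of the GATA1 cofactor FOG1 (chromosome 8, 122281856 to 122337862), was at 34.7 and 26.1 CPM in wild type and at 41.7 and 70.2 CPM in inducible HIF-1α. The groups did not overlap, and the log2 fold change was 0.88 ± 0.30 (edgeR adjusted p = 0.22). An annotated read-through gene overlaps Zfpm1 on the same strand, so reads could be counted for either.

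Of the complex that joins GATA1 to E-box proteins, the basic helix-loop-helix factor gene Tal1 had the largest fold change of the 10 members over all 4 libraries, within an SE of that of Gata1, which was the larger without replicate 1. Tal1 (chromosome 4, 115056426 to 115071755) was at 134 and 116 CPM in wild type and at 195 and 309 CPM in inducible HIF-1α. Both inducible HIF-1α libraries were above both wild-type libraries, replicate 1 at 1.56 and replicate 2 at 2.48 times the wild-type mean. Its log2 fold change was 1.01 ± 0.26 (edgeR adjusted p = 0.132), and it was 1.31 ± 0.17 without replicate 1 (adjusted p = 1.096e-12) and 0.68 ± 0.18 without replicate 2 (adjusted p = 0.0026).

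Lmo2, the gene of the LIM-only adaptor that bridges TAL1 and GATA1 (chromosome 2, 103957903 to 103981878), was at 64.1 and 52.9 CPM in wild type and at 84.6 and 96.9 CPM in inducible HIF-1α. It was the member whose inducible HIF-1α libraries lay closest together, 1.15-fold apart. The log2 fold change was 0.63 ± 0.20 (edgeR adjusted p = 0.193), 0.72 ± 0.19 without replicate 1 and 0.57 ± 0.19 without replicate 2 (adjusted p = 0.000703 and 0.0282). Ldb1, the gene of the adaptor that dimerises the complex and links enhancers to promoters (chromosome 19, 46031525 to 46048145), was at 103 and 125 CPM in wild type and at 107 and 214 CPM in inducible HIF-1α. Replicate 1 lay within the wild-type pair, so the groups overlapped, and the log2 fold change was 0.49 ± 0.33 (edgeR adjusted p = 0.49), with -0.05 ± 0.18 without replicate 2. Lmo2 and Ldb1 each overlap an annotated gene on the other strand, and no source used here states whether strand was used in the counting.

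Klf1, the erythroid Krüppel-like factor gene (Entrez 16596; chromosome 8, 84901982 to 84905291), was at 46.7 and 36.8 CPM in wild type and at 52.7 and 96.2 CPM in inducible HIF-1α. The groups did not overlap, and the log2 fold change was 0.83 ± 0.31 (edgeR adjusted p = 0.251), 1.20 ± 0.19 without replicate 1 (adjusted p = 4.62e-09) and 0.37 ± 0.20 without replicate 2 (adjusted p = 0.268). Gfi1b, the gene of the zinc finger repressor that recruits the demethylase LSD1 (chromosome 2, 28609450 to 28621982), was at 25.0 and 28.5 CPM in wild type and at 28.1 and 64.8 CPM in inducible HIF-1α. Replicate 1 lay within the wild-type pair. The log2 fold change was 0.80 ± 0.38 (edgeR adjusted p = 0.35), 1.28 ± 0.20 without replicate 1 and 0.11 ± 0.23 without replicate 2. The gap between the inducible HIF-1α libraries, 2.31-fold, was the largest of the 10 members, and 3.10% of all tested genes had at least as large a gap in this direction.

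Bcl11a, the globin-switching repressor gene (chromosome 11, 24076564 to 24173558), was at 108 and 102 CPM in wild type and at 150.0 and 227 CPM in inducible HIF-1α. Both inducible HIF-1α libraries were above the wild-type pair, and the log2 fold change was 0.85 ± 0.24 (edgeR adjusted p = 0.159), 1.11 ± 0.18 without replicate 1 and 0.55 ± 0.18 without replicate 2 (adjusted p = 4.12e-09 and 0.0241). B cells and plasmacytoid dendritic cells express Bcl11a as well. Of 16 B cell markers 12 fell and none rose, among them Ms4a1 (CD20), from 108 and 91.7 CPM to 1.20 and 1.01 CPM. Of 8 tested plasmacytoid dendritic cell markers 2 fell, Spib (130.4 and 133 CPM to 1.90 and 2.06 CPM), which B cells also express, and Siglech. Annotated antisense genes overlap Bcl11a.

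Nfe2, the gene of the p45 subunit of NF-E2 (chromosome 15, 103248212 to 103258403), was at 125 and 109.6 CPM in wild type and at 139.7 and 106 CPM in inducible HIF-1α. The inducible HIF-1α libraries lay on either side of the wild-type pair. The log2 fold change was 0.07 ± 0.21 (edgeR adjusted p = 0.899) and no alternative called it.

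**Figure D3:**
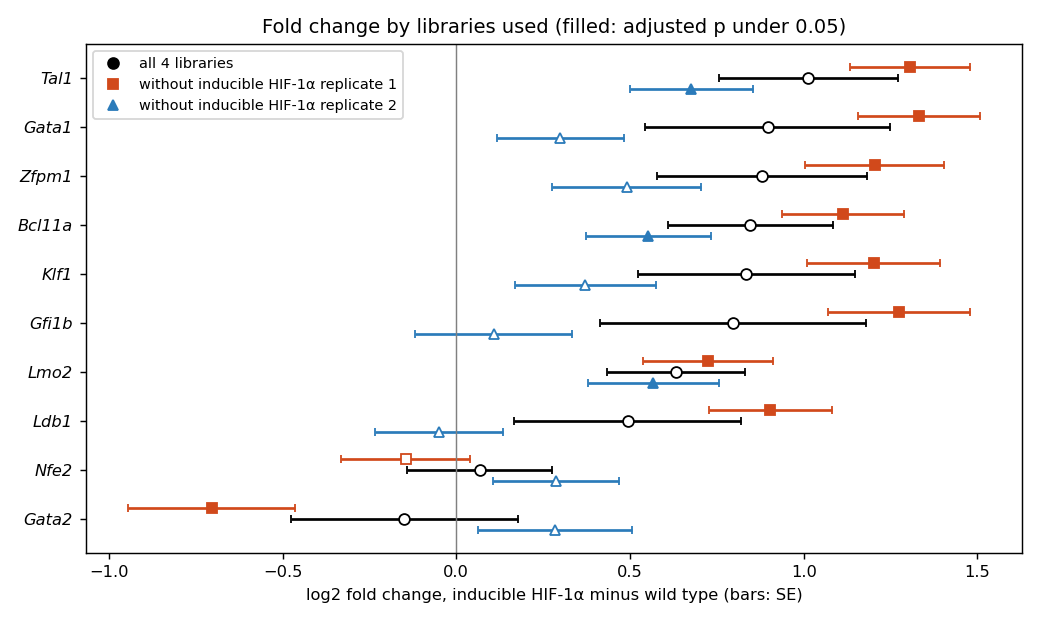
Log2 fold change of each member, inducible HIF-1α minus wild type, with all 4 libraries (black circles) and without inducible HIF-1α replicate 1 (orange squares) or replicate 2 (blue triangles); bars are SE and filled symbols passed an adjusted p of 0.05. No black symbol is filled, 9 orange ones are, and of the blue ones those of Tal1, Lmo2 and Bcl11a are.

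Reads of the members per Gata1 read, computed after the values above were seen, spread over the 4 libraries to unequal degrees. Klf1 had 0.463 and 0.478 reads per Gata1 read in wild type and 0.493 and 0.429 in inducible HIF-1α, a spread of 1.15-fold over the 4 libraries. Zfpm1 spread 1.25-fold, Tal1 1.37-fold, Bcl11a 1.39-fold, Gfi1b 1.4999-fold, Ldb1 1.71-fold and Lmo2 1.83-fold. Nfe2 had 1.24 and 1.42 in wild type, 1.31 in inducible HIF-1α replicate 1 and 0.474 in replicate 2, a spread of 3.004-fold. Gata2 had 0.285, 0.363, 0.315 and 0.0778 in the same order, a spread of 4.67-fold, the largest among the members. Lmo2 was also lowest in replicate 2 (0.432, against 0.635 to 0.792 in the other libraries), as were Klf1, Zfpm1 (0.313), Ldb1 (0.953) and Bcl11a (1.01). Tal1 and Gfi1b were lowest in wild-type replicate 1 (1.33 and 0.247). All these ratios share Gata1 as their denominator, and Gata1 was 2.10-fold higher in replicate 2 than in replicate 1.

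**Figure D4:**
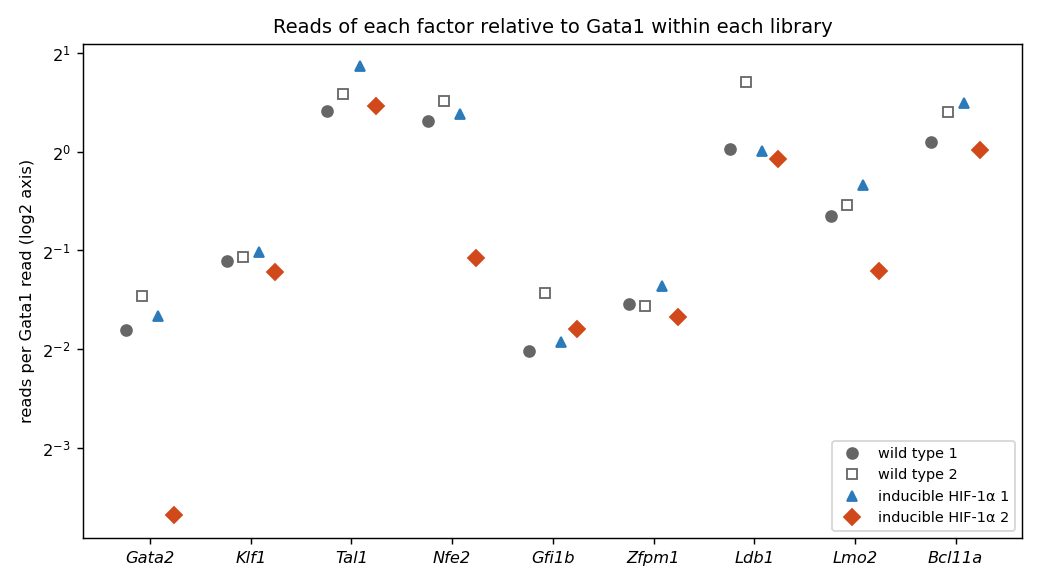
Reads of each factor per Gata1 read within each library, on a log2 axis, with 1 symbol per library (grey circle and open square wild type, blue triangle inducible HIF-1α replicate 1, orange diamond replicate 2). The Klf1 and Zfpm1 symbols lie within 1.15-fold and 1.25-fold, while the orange diamonds of Gata2 and Nfe2 fall to 0.0778 and 0.474.

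Levels were compared between genes per kilobase of exon (union of GENCODE M21 exons), in CPM per kb. In wild type Nfe2 (39.3 ± 3.71, SD, n = 2) and Gata1 (36.5 ± 6.98) were highest and did not differ beyond their spread. Tal1 (28.5 ± 2.97), Klf1 (27.3 ± 4.59), Lmo2 (27.0 ± 3.65) and Ldb1 (24.8 ± 3.47) followed within each other's spread, then Gfi1b (14.6 ± 1.37). The spread of Gata1 overlapped those of Tal1, Klf1 and Lmo2 as well. Zfpm1 (8.67 ± 1.73) and Bcl11a (7.96 ± 0.314) also overlapped, and Gata2 was lowest (5.26 ± 0.116). In inducible HIF-1α replicate 1 the order opened with Nfe2 (46.8), Tal1 (44.4) and Gata1 (43.8). In replicate 2 it opened with Gata1 (92.0), Tal1 (70.6) and Klf1 (62.9), with Nfe2 sixth at 35.6 and Gata2 last at 3.23. The order depends on the exon lengths, which for Bcl11a come to 13175 bases with all annotated transcripts included.

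Over 146 genes of the lists used here whose average log2 CPM reached 3, the genes whose centred log2 CPM over the 4 libraries lay nearest to that of Gata1 were Klf1, Ssbp3 and Zfpm1 (Euclidean distances 0.15, 0.18 and 0.23). Nearest to Klf1 were Zfpm1, Gata1 and Ssbp3 (0.12, 0.15 and 0.24), and nearest to Bcl11a were Tal1, Zfpm1 and Klf1 (0.19, 0.26 and 0.27). Nearest to Gata2 were the cytokine receptor gene Flt3 and the transcription factor genes Mef2c and Meis1 (0.16, 0.18 and 0.26). These 4 points share their libraries and scaling, so the distances are a description.

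Partners and cofactors of the members gave few calls. Of 20 listed genes 19 were tested and none was called (also none by DESeq2 and limma-voom, and 1 at an unadjusted p under 0.05), with a median log2 fold change of 0.08. Without inducible HIF-1α replicate 1, 4 of the 19 were called higher and 3 lower, near the 32.1% called among all tested genes, and without replicate 2 none was called (11.5%). Lyl1, the gene of a TAL1 relative, had the smallest p; it was at 47.9 and 46.5 CPM in wild type and at 33.2 and 22.9 CPM in inducible HIF-1α (-0.75 ± 0.24, edgeR adjusted p = 0.203). Fli1, the megakaryocytic ETS factor gene that opposes KLF1, was at 392 and 385 CPM in wild type and at 311 and 171 CPM in inducible HIF-1α (-0.69 ± 0.29, edgeR adjusted p = 0.297). Ssbp3, whose protein binds LDB1, was at 68.6, 52.9, 63.3 and 141 CPM in the same order, and Tcf3, the gene of the E proteins that pair with TAL1, at 79.2, 76.7, 82.5 and 131 CPM. Fli1, Ssbp3 and Tcf3 were named after their values were seen, as were Spi1, Nfia and all genes outside the naming rule below.

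Among 24 other transcription factors of these and neighbouring lineages none was called by edgeR, 4 had an unadjusted p under 0.05 (16.9% of all tested genes), and DESeq2 called 1 higher and 1 lower (6.91% of all tested genes). These counts are near those shares. The median log2 fold change was -0.10. E2f2, a cell cycle factor gene of terminal erythroid divisions, was at 164 and 183 CPM in wild type and at 88.4 and 96.5 CPM in inducible HIF-1α (-0.91 ± 0.18, edgeR adjusted p = 0.0816). The log2 fold change was -0.85 without inducible HIF-1α replicate 1 and -0.94 without replicate 2, and both fits called it, as did DESeq2. Spi1 was at 33.0 and 37.2 CPM in wild type and at 21.7 and 11.3 CPM in inducible HIF-1α (-1.08 ± 0.33, edgeR adjusted p = 0.185). Nfia, the gene of a factor that favours erythroid over granulocytic fate, was at 91.7 and 77.1 CPM in wild type and at 120.3 and 295 CPM in inducible HIF-1α (1.30 ± 0.40, edgeR adjusted p = 0.186). Without replicate 1, 4 of these factors were called higher and 8 lower, beside 32.1% of all tested genes. Without replicate 2, 1 was called higher and 3 lower, beside 11.5%.

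Erythroid target genes of GATA1 and KLF1 lay on either side of wild type in the 2 inducible HIF-1α libraries. Of 36 tested, 1 was called higher and 1 lower, with a median log2 fold change of 0.35. In replicate 1 the median difference from the wild-type mean, on the log2(CPM + 0.1) scale, was -0.34 and 29 genes lay below that mean; in replicate 2 it was 0.75 and 23 genes lay above. Replicate 2 exceeded replicate 1 in 33 of the 36, and in 49.3% of all tested genes. Without replicate 1, 21 of the 36 were called higher and 8 lower, beside 12.4% and 19.7% of all tested genes, so that the lower calls were near that share. Without replicate 2, 3 were called higher and 12 lower, beside 3.84% and 7.64%.

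The called targets were Tfrc, the transferrin receptor gene, which rose from 663 and 522 CPM to 2262 and 3168 CPM, and the α-globin gene Hba-a1, which fell from 1097 and 1225 CPM to 209 and 385 CPM and whose row is identical to that of its copy Hba-a2. The Hba-a1 call was lost with DESeq2-type size factors, total-count scaling, the stricter filter, the abundant genes left out and with 1 or the other wild-type library left out, and the Tfrc call was lost in those last fits only. Rhag, the Rh-associated glycoprotein gene, was at 165 and 143 CPM in wild type and at 198 and 546 CPM in inducible HIF-1α (1.27 ± 0.44, edgeR adjusted p = 0.221). Epor, the erythropoietin receptor gene and a GATA1 target, was at 37.6, 38.4, 37.8 and 95.6 CPM in the same order, and Car1, the red cell carbonic anhydrase gene, at 499, 539.6, 593 and 1795 CPM. In these 3 genes replicate 2 was by far the highest library. Genes of the late red cell program were below wild type in both inducible HIF-1α libraries while Gata1 and Klf1 were not. Slc4a1 (band 3) was at 686, 976, 249.9 and 590.0 CPM (-0.98 ± 0.40, edgeR adjusted p = 0.286), Epb42 (protein 4.2) at 53.8, 60.6, 22.97 and 38.2 CPM, and Alas2, the gene of the first enzyme of erythroid heme synthesis, at 60.0, 78.1, 19.6 and 29.1 CPM (-1.501 ± 0.27, edgeR adjusted p = 0.0602). Hbb-bs, a β-globin gene that shares reads with near-identical copies, was at 3475, 3395, 684 and 1555 CPM.

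Megakaryocyte and platelet target genes of GATA1, NF-E2 and FLI1 did not follow Gata1. Of 22 tested, 2 were called lower and none higher, with a median log2 fold change of -0.86 and 19 negative values. Ppbp, a platelet chemokine gene, fell from 15.003 and 9.23 CPM to 0.814 and 0.898 CPM, and Thbs1, the thrombospondin-1 gene, from 167 and 201 CPM to 47.5 and 22.3 CPM. Both calls were lost with 1 or the other wild-type library left out, Ppbp was not tested under the stricter filter, and that of Thbs1 was also lost with total-count scaling, the stricter filter and the abundant genes left out. The median difference from the wild-type mean was -0.56 in replicate 1 and -1.12 in replicate 2 on the log2(CPM + 0.1) scale. Of the 22 tested, 18 lay below the wild-type mean in replicate 1 and 19 in replicate 2. Neutrophil, monocyte and macrophage markers lay lower in the same libraries (medians -0.73 and -1.73), and their part in these values was not tested.

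Of 14 stem and progenitor markers none was called by edgeR, DESeq2 or limma-voom (2 at an unadjusted p under 0.05). Slamf1 (CD150) had the smallest p, at 1.94 and 3.28 CPM in wild type and 5.11 and 7.63 CPM in inducible HIF-1α (1.29 ± 0.44, edgeR adjusted p = 0.216). In replicate 1, 13 of the 14 lay above the wild-type mean, and in replicate 2, 10 lay below it and 4 above. The median differences were 0.38 and -0.35 on the log2(CPM + 0.1) scale, and those of all tested genes -0.03 and -0.005. The list was mixed: Kit, Slamf1 and Mycn lay above both wild-type libraries in both replicates. Among mast cell and basophil markers none of 9 tested was called by edgeR (4 at an unadjusted p under 0.05; DESeq2 called 2 lower), and Prss34, a protease gene of basophils, ranked first by p (-1.13 ± 0.22, edgeR adjusted p = 0.0806). Of 9 eosinophil markers Ear2 fell (-2.22 ± 0.31, edgeR adjusted p = 0.0294). Endothelial cells express Tal1, Lmo2 and Gata2, and 12 endothelial markers summed to 68.7, 75.1, 64.3 and 42.3 CPM. Pecam1 was at 25.8, 26.1, 21.6 and 9.20 CPM and Tie1 at 25.2, 31.5, 23.4 and 11.5 CPM. Without this pair, left out after the values were seen, the other 10 summed to 17.8, 17.5, 19.2 and 21.6 CPM. The direction of the sum therefore depends on that choice. None of the 11 tested was called by edgeR, DESeq2 or limma-voom (2 at an unadjusted p under 0.05), with Tek the smallest p (1.103 ± 0.41, edgeR adjusted p = 0.248). Of 12 neutrophil, monocyte and macrophage markers Adgre1 (F4/80) fell, from 24.1 and 26.1 CPM to 3.25 and 2.17 CPM. The calls of Ear2, Adgre1 and Siglech were lost with 1 or the other wild-type library left out, and those of Ms4a1 and Spib without wild-type replicate 2.

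**Figure D5:**
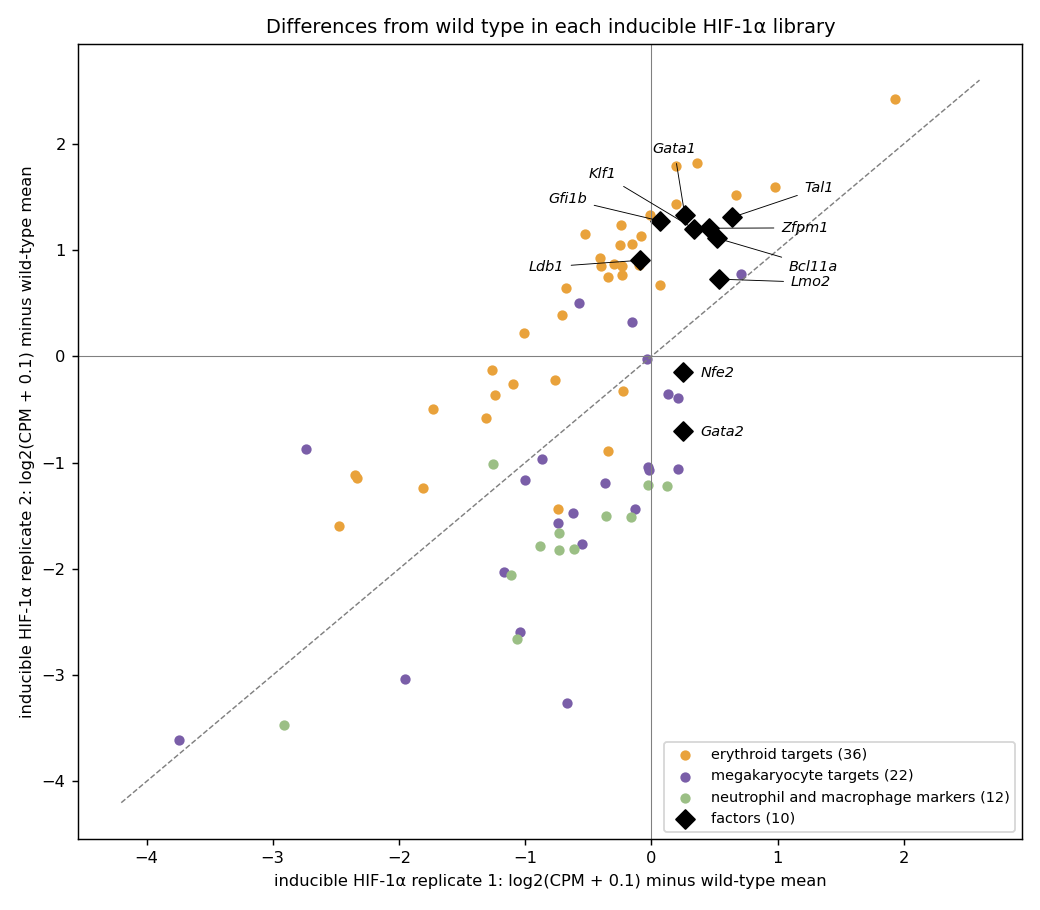
Difference from the wild-type mean, log2(CPM + 0.1), in inducible HIF-1α replicate 1 (x axis) and replicate 2 (y axis); each point is a gene, black diamonds are the 10 factors, orange points erythroid targets, purple points megakaryocyte targets and green points neutrophil and macrophage markers, and the dashed line marks equal differences. The erythroid targets lie above the line in 33 of 36 cases, with 8 of the factors, while Gata2 and Nfe2 lie below it with 16 of 22 megakaryocyte targets and 11 of 12 neutrophil and macrophage markers.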

How the data were processed

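RNA sequencing libraries from CD117-selected cells were analysed from a table of raw counts per Entrez gene, 1 column per library, as deposited by the authors. The build mm10 and the tools bcl2fastq, CASAVA 1.8, TopHat and edgeR are named, per the submitters' processing notes; no source used here states the counting tool, annotation, strand setting or treatment of multi-mapped reads. A RefSeq gene table of GRCm38.p6 gave symbols for 24334 of the 24415 identifiers. The 81 others, with 0.911% to 1.45% of the counts of a library, stayed in the fit.

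Genes were kept by filterByExpr (minimum count 10), scaled by TMM and tested with edgeR 4.0.16 in R 4.3.3 (glmQLFit and glmQLFTest, inducible HIF-1α against wild type, 4 libraries, no block, Benjamini-Hochberg over 14043 genes, threshold 0.05). Each SE was taken as the absolute log2 fold change over the root of its F statistic. Differences of single libraries use log2(CPM + 0.1) and count ratios a pseudocount of 0.5. The code was tested on simulated data. The replicates of a genotype differed by far more than sampling noise (chi-square per degree of freedom 22.1 in wild type and 111.5 in inducible HIF-1α), so none is a copy. Alternatives were 3 other scalings, DESeq2 1.42.0, limma-voom (limma 3.58.1), 2 other filters, the 10 most abundant genes left out, a replicate block and leaving out each library.

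The members and gene lists were chosen with earlier results of these data known. Genes named are the members, Hif1a, for each list up to 3 called genes in order of p (the top gene by p in a list with no call), and for Gata1, Klf1, Gata2 and Bcl11a the 3 nearest genes; not every gene this rule took is given, and others were named after their values were seen.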

Additional observations from a re-analysis of the deposited data

How the results depend on the processing

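The direction of 7 of the 10 members held under all 13 alternatives. When a library was left out, the log2 fold change ranged from -0.70 to 0.28 for Gata2, from -0.15 to 0.29 for Nfe2 (negative also without wild-type replicate 2), from -0.051 to 0.90 for Ldb1, from -0.82 to 0.35 for Flt3, from -0.86 to 0.090 for Mef2c and from -0.57 to 0.32 for Meis1; Gata2, Ldb1, Flt3, Mef2c and Meis1 turned without inducible HIF-1α replicate 2, Meis1 also without wild-type replicate 2 (0.068), and Nfe2 without inducible HIF-1α replicate 1. With total-count scaling Meis1 stood at 0.000496. The number of members called was 0 with all 3 other scalings, limma-voom, the stricter filter, the abundant genes left out and the replicate block, 2 (Tal1 and Bcl11a) with DESeq2 and with no filter, and 0 to 9 when a library was left out. The number of genes called was 97 with total-count scaling, 971 with DESeq2, 747 with no filter, 78 with at least 1 CPM in all 4 libraries, and 0 to 4669 when a library was left out. Partners called ranged from 0 to 7 when a library was left out. Other transcription factors called were 2 with DESeq2 and with no filter, and 0 to 12 when a library was left out. Erythroid targets called were 1 with size factors of the DESeq2 type, total-count scaling, the stricter filter or the abundant genes left out, 8 with DESeq2 and with no filter, and 0 to 29 when a library was left out. Megakaryocyte targets called were 1 with total-count scaling or the abundant genes left out, 4 with DESeq2 and with no filter, 0 with the stricter filter (15 tested), and 0 to 13 when a library was left out. The cause of these changes was not tested. The log2 ratio of Gata1 to Gata2 differed by 0.03 to 2.05 and that of Gata1 to Spi1 by 0.97 to 2.97 when a library was left out.

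The replicate numbers are not known to pair the libraries (correlation of same-numbered deviations over genes 0.077). With the replicate block 381 genes were called, 34 higher and 347 lower, none of them a member, and 7 erythroid targets, 3 higher and 4 lower. With 2 libraries per genotype, the member counts rest on single libraries, and a p above the threshold does not show equal levels.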
